A study of Carassius auratus with 9 samples.

Results

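PMEL and MART-1 are proteins of the melanosome, and their goldfish copies were followed here across back skin of 3 colors. The members were chosen by name: 4 genes annotated as melanocyte protein PMEL-like and 2 annotated as melanoma antigen recognized by T-cells 1-like, which makes 6 of the 74297 genes in the files. The fish were celestial goldfish, a breed of Carassius auratus with upturned eyes, aged 4 months and grouped by brown, yellow or white skin, with 3 biological replicates of each color. White skin was the comparison group for both pigmented colors, and the labels name no treatment, genotype or sex. The study set out to find genes related to pigment formation. The replicates are labelled biological, but the labels do not say whether each is 1 fish or a pool.

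Melanin is made and stored in the melanosome, a relative of the lysosome. In mammals, PMEL is cleaved inside the early melanosome into fragments that assemble into amyloid fibrils, and melanin is laid down on these fibrils. MART-1, also called Melan-A, is a small membrane protein of early melanosomes that binds PMEL and is needed for its processing in human melanocytic cells. Fish skin holds dark melanophores, yellow to orange xanthophores and reflective iridophores, and white areas can lack one or more of these cells. Goldfish descend from a genome doubling, so a gene that is single in mammals often has several copies.

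Counted reads ran from 13772601 to 17359648 a library, and 1 read on a gene of 1 kilobase was worth 0.0448 to 0.0891 FPKM (fragments per kilobase, on the scale of each library). Keratinocyte genes took 0.896% to 5.43% of reads and were present in every library, as the label of skin requires. Skeletal muscle genes took 18.35%, 24.6% and 30.9% of reads in brown 3, yellow 3 and white 3, and between 0.205% and 11% in the other libraries, so the libraries numbered 3 stood apart within each color. A read that matches several copies may have been counted on any of them, since no counting rule is stated in the labels.

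The 4 PMEL-like copies fell into a pair with at least 268 reads each and a pair with 9 reads or fewer. LOC113069261, named pmela in the RefSeq gene table, lies on unplaced sequence (1008671 to 1017060, plus strand) and had 970 reads over the 9 libraries. LOC113054907 lies on chromosome 36 (578777 to 592108, minus strand) and had 268 reads. LOC113065723 on chromosome 48 (8031235 to 8036837, minus strand) had 9 reads in all, and LOC113041558 on chromosome 23 (17041740 to 17046358, plus strand) had 1 read, in white 1. Coordinates are those of the files, whose gene starts match assembly ASM336829v1. The MART-1-like copies LOC113081155 (144941 to 148752, plus strand) and LOC113079820 (131318 to 135103, minus strand) lie on separate unplaced sequences and had 673 and 438 reads.

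Shared neighbours linked the copies in pairs. Among the 8 nearest protein-coding genes on each side, LOC113065723 and LOC113041558 shared 12 product names, including cyclin-T1 and retinoic acid receptor gamma-A. LOC113069261 and LOC113054907 shared 4, among them microspherule protein 1 and plasticin, although LOC113069261 has only 9 named products around it. LOC113069261 also shared 2 tubulin names with LOC113065723 and 1 with LOC113041558, and LOC113054907 shared none with either. LOC113081155 and LOC113079820 shared 4, among them the ubiquitin ligase UHRF2. Product names with the word uncharacterized were left out of these shared counts. A gene so named, KIAA2026-like, lay next to both MART-1-like copies. No row of the files overlapped a member.

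LOC113069261 had 1.19, 4.28 and 1.17 FPKM in brown 1, 2 and 3. It had 8.67, 2.91 and 3.93 FPKM in yellow 1, 2 and 3, against 0, 0.18 and 0 FPKM in white 1, 2 and 3. Every brown and yellow library was thus above every white one, and yellow 1 stood highest. Of all tested genes, 5.74% were higher in each brown library than in each white one, and 5.09% in each yellow library. The 8 white reads all came from white 2, and in white 1 and white 3 a count of 0 allows up to 0.0543 and 0.108 FPKM.

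LOC113054907 had 0.525, 2.33 and 1.36 FPKM in the brown libraries. It had 1.17, 0.0895 and 1.15 FPKM in the yellow libraries, against 0.0174, 0 and 0.138 FPKM in the white libraries. Its highest library was brown 2. Yellow 2, with 5 reads, lay below white 3, with 4 reads, so yellow and white overlapped on the FPKM scale. A read of this copy was worth 0.0179 FPKM in yellow 2 and 0.0345 FPKM in white 3. The overlap thus rests on few reads and on the scaling of the 2 libraries. LOC113065723 did not reach 0.1 FPKM anywhere: it had 1, 0 and 1 reads in brown, 3, 2 and 0 in yellow, and 1, 0 and 1 in white. At these depths no color could be told from another for this copy or for LOC113041558.

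**Figure D1:**
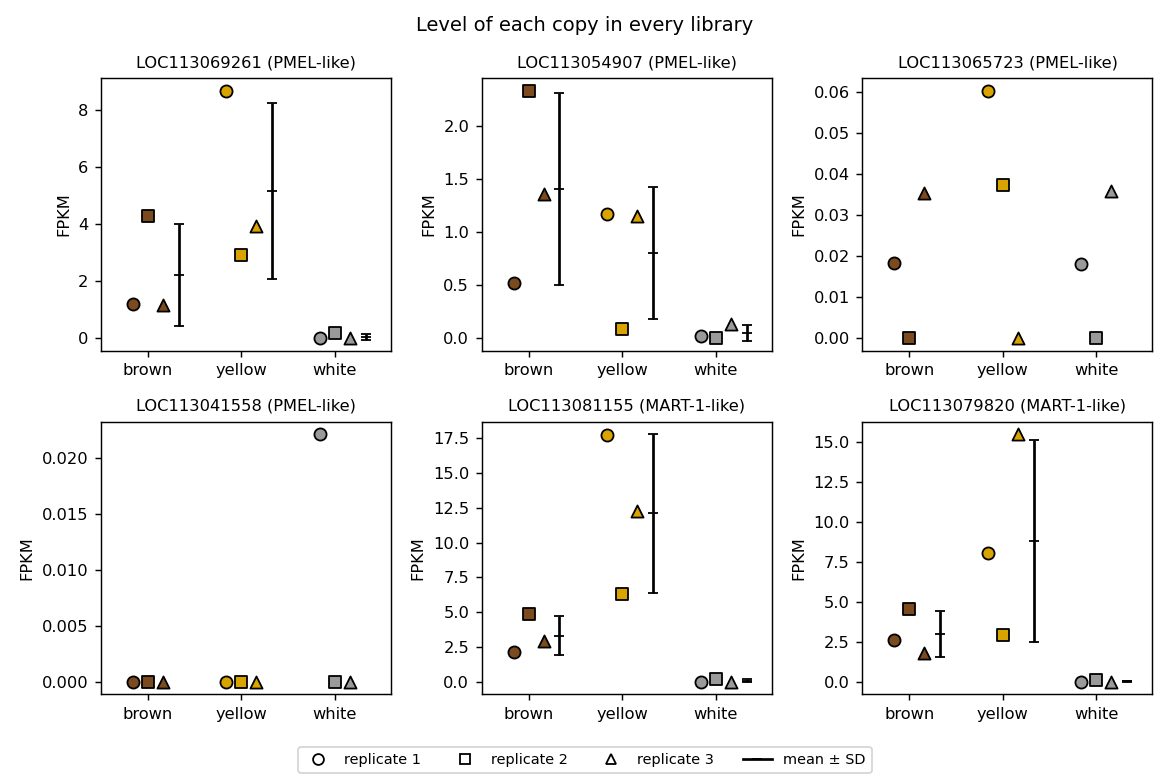
FPKM of each of the 6 copies (1 panel each, with its own vertical axis) in every library of brown, yellow and white skin, with the mean ± SD beside the points of the 4 copies that were tested. These 4 sit near 0 in white skin, while LOC113065723 and LOC113041558 rest on at most 3 reads in any library.

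The MART-1-like copies were the higher of the families in pigmented skin. LOC113081155 had 2.13, 4.87 and 2.89 FPKM in the brown libraries. It had 17.7, 6.31 and 12.3 FPKM in the yellow libraries, against 0, 0.197 and 0 FPKM in the white libraries. The colors did not overlap, with yellow highest, brown between and white lowest. Of all tested genes, 5.09% had each yellow library above each white one and 5.74% each brown library above each white one. In 2.57% each brown library was below each yellow one, and the share with the full order was not computed.

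LOC113079820 had 2.62, 4.56 and 1.77 FPKM in the brown libraries. It had 8.02, 2.91 and 15.5 FPKM in the yellow libraries, against 0, 0.0702 and 0 FPKM in the white libraries. Here yellow 2 fell within the brown range, and yellow 3 was the highest library. Among the 27420 genes tested, LOC113081155 was above 91.7%, 74.7% and 85.3% in yellow 1, 2 and 3 and above 38.7%, 65.5% and 50% in brown 1, 2 and 3. In bulk skin, fewer cells of a type and less RNA per cell cannot be told apart.

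Yellow skin was set against white to look for genes linked to yellow color, and 1 of 4 tested PMEL-like and MART-1-like copies passed the threshold. LOC113081155 averaged 12.1 ± 5.69 FPKM in yellow and 0.0656 ± 0.114 FPKM in white (SD, n = 3 each), a log2 change of 3.52 ± 0.38 (SE) on the log2(FPKM + 1) scale (limma adjusted p = 0.0149 over 27420 genes). It was 1 of 4 tested members called, where 0.0438% of all tested genes were called and 0.0328% were called higher. The 4 passed the filter on low values only through pigmented libraries, so this count is a description and supports nothing. With no filter on low values 0 of 6 members were called (limma adjusted p = 0.1 for LOC113081155). From reads pooled by color the ratio was 173 (95% counting interval 59 to 843), with all 3 white reads in white 2. The ratio was 98.2 without white 1 (95% counting interval 33.4 to 478) and at least 113 without white 2, taking 3 reads for the remaining white libraries together as the floor.

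The call of LOC113081155 depended on the processing and on single libraries. The adjusted p ranged from 0.00507 to 0.999 over 20 alternatives and missed 0.05 in 12 of them: 0.0578 without yellow 1, 0.0547 without yellow 3, 0.0591 without brown 3, 0.102, 0.124 and 0.112 without white 1, 2 and 3, and in the 6 named in the closing part on processing. Its direction held in all 20, with log2 changes of 3.21 to 7.37, a span that includes other pseudocounts and voom. Yellow and white libraries did not overlap for this copy, so leaving out a library or changing the pseudocount could not reverse the sign.

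The other 3 tested copies did not pass in yellow against white. LOC113081155, LOC113079820 and LOC113069261 were higher in each yellow library than in each white one, which held for 5.09% of tested genes, and had an unadjusted limma p under 0.05, as had 3.5%. With the filter as it is, these 3 of 4 are a description. LOC113079820 averaged 8.8 ± 6.31 FPKM in yellow and 0.0234 ± 0.0406 FPKM in white (SD, n = 3 each), a log2 change of 3.03 ± 0.48 (SE; limma adjusted p = 0.18). It passed with a pseudocount of 0.1 (adjusted p = 0.0157) and without yellow 2 (0.0312), within a range of 0.0157 to 0.999 over 19 alternatives. White held 1 read of it, so the pooled ratio of 308 carries a 95% counting interval of 55 to 12200. The ratio was 175 without white 1, and without white 2 only a bound of at least 67 can be given. LOC113069261 averaged 5.17 ± 3.07 FPKM in yellow and 0.06 ± 0.104 FPKM in white, a log2 change of 2.43 ± 0.43 (limma adjusted p = 0.289; pooled ratio 84.6, 47.9 without white 1, 52 without yellow 1 and at least 147 without white 2). LOC113054907 averaged 0.803 ± 0.618 FPKM in yellow and 0.0518 ± 0.0752 FPKM in white, a log2 change of 0.71 ± 0.38 (limma adjusted p = 1), whose 95% interval of -0.13 to 1.56 includes 0. Its pooled ratio, with 5 white reads, was 19.3 (95% counting interval 8.01 to 60.8). The ratio was 12.1 without yellow 1 and 75.6 without white 3, which left 1 white read.

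Brown skin was set against white to look for genes linked to dark color, and no PMEL-like or MART-1-like copy passed. LOC113081155 averaged 3.29 ± 1.41 FPKM in brown and 0.0656 ± 0.114 FPKM in white (SD, n = 3 each), a log2 change of 1.97 ± 0.38 (SE; limma adjusted p = 0.48). LOC113079820 averaged 2.98 ± 1.43 FPKM in brown and 0.0234 ± 0.0406 FPKM in white, a log2 change of 1.90 ± 0.48 (limma adjusted p = 0.788). LOC113069261 averaged 2.21 ± 1.79 FPKM in brown and 0.06 ± 0.104 FPKM in white, a log2 change of 1.47 ± 0.43 (limma adjusted p = 0.788). LOC113054907 averaged 1.4 ± 0.902 FPKM in brown and 0.0518 ± 0.0752 FPKM in white, a log2 change of 1.12 ± 0.38 (limma adjusted p = 0.788).

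All 4 were higher in each brown library than in each white library, which held for 5.74% of tested genes. They passed the filter on low values only through pigmented libraries, so this count is a description and supports nothing. Limma called 0 of the 4 members against 0.0365% of all genes, with 4 at an unadjusted p under 0.05 (5.72% of all genes), and voom on reads recovered from the FPKM also called 0, with 4 at an unadjusted p under 0.05 (5% of all genes). Over the alternatives the adjusted p of LOC113081155 ran from 0.054 to 1. Brown 2 was the highest brown library for each of the 4 tested copies, and without it the pooled ratio to white was 18.8 in place of 34.4 for LOC113069261 and 21.5 in place of 34.2 for LOC113054907. White libraries moved the pooled ratios too: without white 1 it was 19.5 for LOC113069261 and 26.2 in place of 46.2 for LOC113081155, and without white 3, which held 4 of the 5 white reads, it was 134 for LOC113054907. Both pigmented colors were set against the same white libraries, so these comparisons are not independent of each other.

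**Figure D2:**
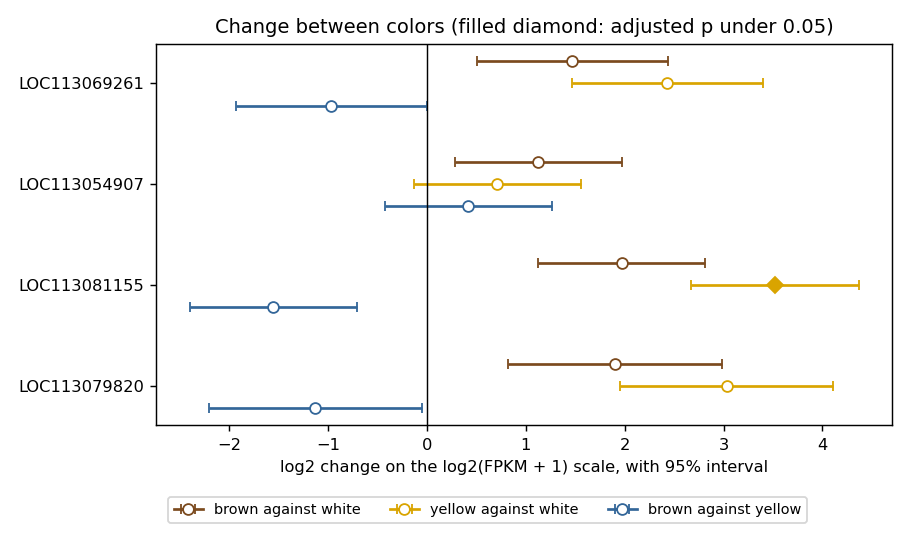
Log2 change of the 4 tested copies on the log2(FPKM + 1) scale (horizontal axis) with its 95% interval from limma, for brown against white, yellow against white and brown against yellow. Only LOC113081155 in yellow against white is past the threshold, at 3.52, and LOC113054907 is the only copy with a positive value in brown against yellow, at 0.41.

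Set directly against each other, brown and yellow skin gave no call for any member, and limma called 0 of all 27420 genes (0%). At an unadjusted p under 0.05 limma had 2 members and 457 genes (1.67%), and voom, which also called 0, had 1 member and 301 genes (1.1%). The estimates were negative for 3 copies and positive for 1. The log2 change was -1.56 ± 0.38 (SE) for LOC113081155, -1.13 ± 0.48 for LOC113079820 and -0.97 ± 0.43 for LOC113069261, and 0.41 ± 0.38 for LOC113054907 (limma adjusted p = 1 for each). The 95% intervals were -2.40 to -0.71, -2.21 to -0.05, -1.93 to 0 and -0.43 to 1.26 in the same order. Single libraries moved these values: LOC113079820 was at -0.64 without yellow 3 (-0.40 without the 3 libraries numbered 3), LOC113069261 at -0.59 without yellow 1, and LOC113054907 at 0.08 without yellow 2, 0.14 without brown 2 and 0.70 without brown 1. LOC113081155 was lower in every brown library than in every yellow one, as were 2.57% of tested genes.

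The share of PMEL reads on LOC113069261 was lower in every brown library than in every yellow one. LOC113069261 held 67.7%, 63.8% and 44.6% of the PMEL reads in brown 1, 2 and 3, and 87.1%, 95.7% and 76.7% in yellow 1, 2 and 3. The exact (Clopper-Pearson) 95% intervals, which cover counting error only, were 57.4% to 76.9%, 57.6% to 69.7% and 33% to 56.6% in brown and 83.8% to 89.9%, 91.4% to 98.3% and 69% to 83.3% in yellow. The interval of yellow 3 overlapped those of brown 1 and brown 2. How often other gene pairs show such an order was not computed, so these shares are a description. White skin had 3, 8 and 5 PMEL reads, too few to place its share.

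As a ratio of FPKM, LOC113069261 stood at 2.26, 1.84 and 0.86 times LOC113054907 in brown 1, 2 and 3 and at 7.38, 32.5 and 3.43 times in yellow 1, 2 and 3. The libraries did not overlap, and the mean log2 ratio was 0.61 ± 0.73 in brown and 3.23 ± 1.65 in yellow (SD, n = 3 each). The difference of -2.62 had an exact two-sided permutation p = 0.1, the smallest that 3 against 3 allows, and p = 0.167 after Benjamini-Hochberg adjustment over 5 ratios. Both values come from the same library, so its scaling cancels in the ratio. Yellow 2, with its 5 reads of LOC113054907, moved the difference most, to -1.72 without it. The 5 ratios, here and below, were chosen after their values were seen, so their permutation p-values are a description. Adjustment over the 5 does not cover that choice. The split between copies also depends on the unstated counting rule for reads that match several copies.

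The ratio between the MART-1 copies overlapped between brown and yellow. LOC113081155 stood at 0.812, 1.07 and 1.63 times LOC113079820 in brown and at 2.2, 2.17 and 0.795 times in yellow (difference in log2 -0.47, exact permutation p = 0.5, adjusted p = 0.5). The MART-1 copies together stood at 2.75, 1.43 and 1.82 times the PMEL copies in brown and at 2.59, 3.04 and 5.46 times in yellow (difference in log2 -0.86, exact permutation p = 0.2, adjusted p = 0.25). MART-1 was the more abundant family in all 6 pigmented libraries.

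**Figure D3:**
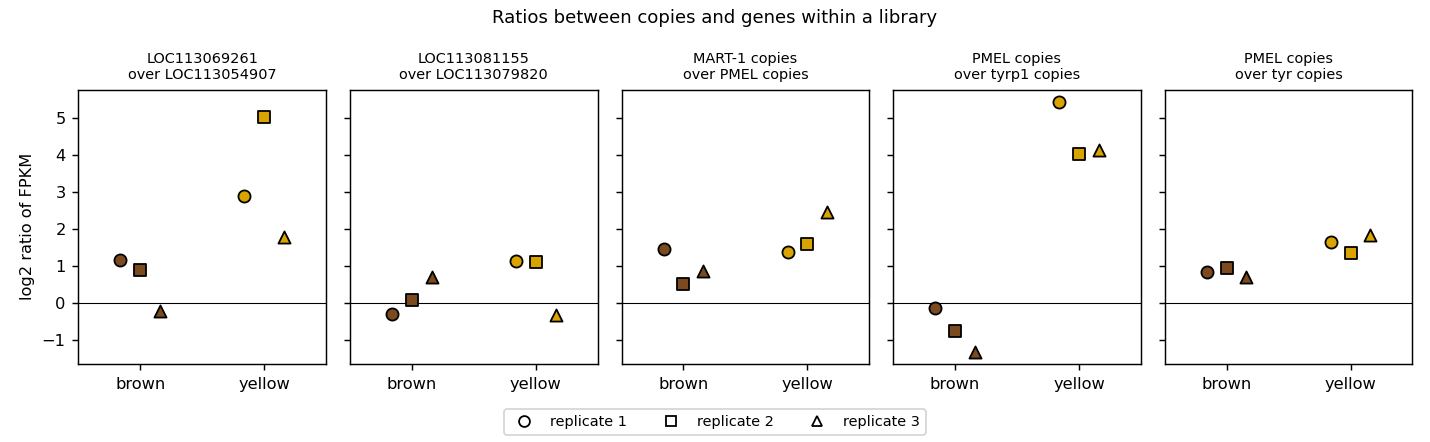
Log2 ratio of FPKM within each brown and yellow library, for copies of 1 family, for the families, and for the PMEL copies against tyrp1 and tyr. Brown and yellow do not overlap for LOC113069261 over LOC113054907 or for PMEL over tyrp1 and tyr, and they do for the MART-1 copies.

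The ratio of PMEL to the melanin enzyme gene tyrp1 was low in every brown library and high in every yellow one. The PMEL sums themselves overlapped between brown and yellow, while the tyrp1 sums did not. The PMEL copies summed to 1.73, 6.61 and 2.56 FPKM in brown, 9.91, 3.04 and 5.08 FPKM in yellow and 0.0576, 0.18 and 0.174 FPKM in white. The 3 copies of tyrp1, which encodes an enzyme that helps make brown-black melanin, summed to 1.9, 11.2 and 6.34 FPKM in brown, 0.23, 0.186 and 0.29 FPKM in yellow and 0, 0.053 and 0.0529 FPKM in white. Its copy LOC113106593, the 1 melanin enzyme copy tested, had a log2 change of 1.79 ± 0.39 in brown against white (limma adjusted p = 0.686) and 1.74 ± 0.39 in brown against yellow (limma adjusted p = 1). PMEL stood at 0.404 to 0.911 times tyrp1 in brown and at 16.3 to 43.2 times in yellow (difference in log2 -5.26, exact permutation p = 0.1, adjusted p = 0.167).

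Tyrosinase, the enzyme that starts melanin synthesis, was read in all 9 libraries. Its 3 copies summed to 0.959, 3.42 and 1.57 FPKM in brown, 3.16, 1.2 and 1.42 FPKM in yellow and 0.285, 0.297 and 0.424 FPKM in white. PMEL stood at 1.63 to 1.93 times tyr in brown and at 2.53 to 3.58 times in yellow (difference in log2 -0.78, exact permutation p = 0.1, adjusted p = 0.167). The enzyme gene dct was at 0.31, 1.16 and 0 FPKM in brown, 0.0426, 0.0396 and 0 FPKM in yellow and 0.0384, 0 and 0 FPKM in white.

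Other pigment genes were taken from 8 lists, with 212 annotated copies of which 115 were tested. Limma called 0 of them in brown against white (0.0365% of all genes), yellow against white (0.0438%) and brown against yellow (0%). At an unadjusted p under 0.05 limma had 12, 10 and 7 of the 115 in that order, where 5.72%, 3.5% and 1.67% of all genes were. These counts and shares take both directions together, so they do not count genes higher in pigmented skin. Voom called none either, with 7, 9 and 5 of the 115 at an unadjusted p under 0.05 in either direction, where 5%, 3.06% and 1.1% of all genes were.

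The list of genes that process PMEL or are related to it held 24 copies, 17 of them tested, with median log2 changes of -0.25 for brown against white (all genes -0.02) and -0.11 for yellow against white (all genes -0.03). Beta-secretase 2, which cleaves PMEL in mouse melanocytes, summed over 2 copies to 3.66 ± 1.59 FPKM in brown, 6.21 ± 2.2 in yellow and 4.48 ± 2.41 in white (SD, n = 3 each). CD63, a tetraspanin that sorts PMEL in human cells, was at 30 ± 10.3, 32.8 ± 7.67 and 49.7 ± 14.5 FPKM, and its copy LOC113065613 had the smallest p of the list in brown against white (log2 change -0.80 ± 0.39, limma adjusted p = 0.788). In yellow against white the smallest p was that of CD63 copy LOC113065585 (-0.71 ± 0.42, limma adjusted p = 1), and in brown against yellow that of beta-secretase 2 copy LOC113115343 (-0.69 ± 0.34, limma adjusted p = 1). Apolipoprotein E, which takes part in PMEL fibril formation in mouse, was at 503 ± 326 FPKM in brown, 513 ± 376 in yellow and 567 ± 602 in white. The QNR-71-like genes, relatives of PMEL, were at 8.88 ± 6.59, 8.35 ± 3.2 and 11.8 ± 6.42 FPKM in the same order.

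Among genes of melanosome movement, the 4 melanophilin copies, which link melanosomes to a myosin motor, summed to 8.64 ± 8.25 FPKM in brown, 9.25 ± 6.21 in yellow and 1.6 ± 1 in white (SD, n = 3 each). Copy LOC113096918 led the list in both comparisons against white (log2 change 1.92 ± 0.61 in brown, limma adjusted p = 0.788, and 2.53 ± 0.61 in yellow, limma adjusted p = 0.808). The medians of its list, over 14 tested copies, were 0.13 (brown against white) and 0.20 (yellow against white), and myosin-Va-like LOC113118553 led it in brown against yellow (-0.69 ± 0.32, limma adjusted p = 1). The transporter gene slc45a2, whose product keeps melanosomes at the right acidity, was at 1.5 ± 1.1 FPKM in brown, 1.77 ± 1.97 in yellow and 0.249 ± 0.0354 in white. Other transporter genes differed from it: slc24a5 was at 1.08 ± 0.45, 0.412 ± 0.649 and 0.221 ± 0.165 FPKM in the same order, oca2 at 0.272 ± 0.378, 0.00766 ± 0.0133 and 0.0149 ± 0.0257, and tpcn2 at 4.07 ± 0.518, 3.87 ± 0.184 and 4.79 ± 0.862. The medians of the 4 tested transporter copies were 0.07 (brown against white) and 0.14 (yellow against white). The copper transporter LOC113114321 led the transporter list in brown against yellow (log2 change -0.24 ± 0.22, limma adjusted p = 1) and the two-pore channel LOC113106504 in brown against white (-0.65 ± 0.28, limma adjusted p = 0.788).

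Complexes that build the melanosome as a lysosome-related organelle, with 53 tested copies, had medians of -0.14 (brown against white) and -0.04 (yellow against white) for the log2 change. The AP-1 adaptor copy LOC113110778 led them in yellow against white, with no read in yellow, 2.35 ± 2.03 FPKM in brown and 6.16 ± 3.72 in white (log2 change -2.72 ± 0.58, limma adjusted p = 0.549). BLOC-1 subunit 1-like LOC113080110 led them in brown against white (1.05 ± 0.40, limma adjusted p = 0.788) and AP-1 copy LOC113110622 in brown against yellow (-1.20 ± 0.38, limma adjusted p = 1). Among pigment cell regulators, mitf, a transcription factor that acts on Pmel and Mlana in mouse melanocytes, was at 2.74 ± 0.661 FPKM in brown, 2.86 ± 0.987 in yellow and 2.93 ± 1.68 in white. The melanocortin receptor copy LOC113091614 led the regulators in yellow against white, at 3.43 ± 2.32 FPKM in yellow and 0.267 ± 0.31 in white (log2 change 1.66 ± 0.49, limma adjusted p = 1), and Sox-10-like LOC113067404 did in brown against white (-0.49 ± 0.36, limma adjusted p = 0.79).

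**Figure D4:**
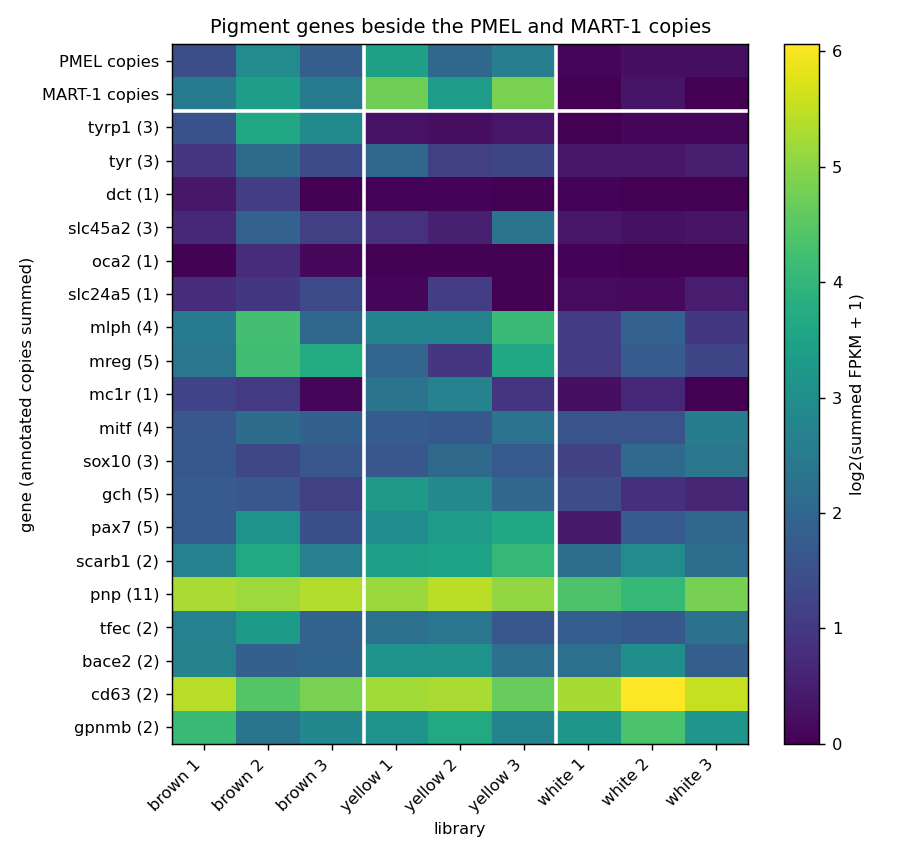
Log2(summed FPKM + 1) of the PMEL and MART-1 copies and of pigment genes summed over their annotated copies (number in brackets), by library (columns, grouped as brown, yellow and white). Dark cells are low values: PMEL and MART-1 are darkest in the white libraries, tyrp1 is dark in yellow and white, and mitf lies between 1.95 and 4.88 FPKM.

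Summed levels of pigment cell markers differed between colors, and their part in the PMEL and MART-1 differences was not tested. The 8 melanophore markers (17 copies) summed to between 10.5 and 39.4 FPKM in brown, 14 and 23 FPKM in yellow and 2.07 and 4.04 FPKM in white. The 7 xanthophore markers (24 copies) summed to between 25.2 and 37.8 FPKM in brown, 44.1 and 49 FPKM in yellow and 17.7 and 26 FPKM in white. Brown and yellow overlapped for the melanophore sum and brown and white for the xanthophore sum. The melanophore genes did not move together. In brown and yellow, tyrp1 averaged 6.48 and 0.235 FPKM, dct 0.491 and 0.0274, oca2 0.272 and 0.00766, and slc24a5 1.08 and 0.412. In the same order, tyr averaged 1.98 and 1.93 FPKM, slc45a2 1.5 and 1.77, mlph 8.64 and 9.25, and mc1r 0.819 and 3.43. Nor did the xanthophore genes. In brown, yellow and white, gch averaged 1.9, 5.97 and 1.01 FPKM, pax7 3.89, 9.03 and 1.95, and scarb1 7.44, 11.9 and 4.55. Over the same 3 colors csf1r averaged 5.46, 8.39 and 6.72 FPKM and xdh 0.626, 0.592 and 0.631. Copies of spr averaged 3.43, 3.85 and 1.55 FPKM and those of pts 7, 7.27 and 5.08. Of the 5 iridophore markers 4 had an annotated copy, and they summed to between 51.6 and 55 FPKM in brown, 43.4 and 59.7 FPKM in yellow and 33.9 and 39.3 FPKM in white. The largest part was purine nucleoside phosphorylase (11 copies), at 37.8, 36.6 and 20.8 FPKM on average in brown, yellow and white. In that order transcription factor EC averaged 5.69, 3.36 and 2.84 FPKM. By contrast, paics (8.83, 9.74 and 10.1 FPKM) and ltk (0.704, 1.29 and 2.27 FPKM) were highest in white. No marker gene with an annotated copy was without reads in any color. LOC113056131, a GTP cyclohydrolase 1-like gene (the enzyme at the entry to pteridine pigments), led the xanthophore list in yellow against white with 4.13 ± 2.53 FPKM in yellow and 0.0173 ± 0.0152 in white (log2 change 2.20 ± 0.39, limma adjusted p = 0.289). Pax-7-like LOC113068849 led it in brown against white (1.24 ± 0.45, limma adjusted p = 0.788). Purine nucleoside phosphorylase-like LOC113045188 led the iridophore list in both comparisons against white. It was at 6.25 ± 1.63 FPKM in brown and 1.68 ± 0.696 in white (log2 change 1.44 ± 0.35, limma adjusted p = 0.788). Transcription factor EC-like LOC113047944 led that list in brown against yellow (log2 change 0.54 ± 0.36, not called).

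Muscle content differed within each color, and its part was not tested beyond the fits given here. The median log2 change of the 96 tested muscle copies was -0.43 in brown against white, -1.64 in yellow against white and 1.15 in brown against yellow, with 0 called by limma or voom (5, 0 and 6 of 96 at an unadjusted limma p under 0.05, and 3, 3 and 4 by voom). For the 42 tested keratinocyte copies it was 0.55, 0.35 and 0.12, with 0 called by limma or voom (7, 2 and 0 of 42 by limma, and 5, 2 and 0 by voom). Over all genes these shares were 5.72%, 3.5% and 1.67% by limma and 5%, 3.06% and 1.1% by voom. Muscle genes took 0.205%, 0.737% and 24.6% of reads in yellow 1, 2 and 3, where LOC113081155 was at 17.7, 6.31 and 12.3 FPKM. With the muscle list as a covariate the log2 change of LOC113081155 in yellow against white was 3.49 ± 0.41 (limma adjusted p = 0.0322), and without the 3 libraries numbered 3 it was 3.42 ± 0.52 (limma adjusted p = 0.373).

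No neighbour of a member was called. Of 79 neighbouring genes 47 were tested, limma called 0 of them in any comparison, and 5 had an unadjusted p under 0.05 in at least 1, as had 8.23% of all tested genes. In yellow against white the tested neighbours had log2 changes of -0.33 to 0.38 around LOC113069261, -0.40 to 0.28 around LOC113054907, -0.16 to 0.66 around LOC113081155 and -0.11 to 0.66 around LOC113079820. In brown against white they had -0.2 to 0.52, -0.11 to 0.92, -1.61 to -0.07 and -0.19 to 1.12 in the same order. The lowest of these was LOC113081157, an ornithine decarboxylase antizyme 2-like gene near LOC113081155. It was at 5.43 ± 3.81 FPKM in brown, 27.1 ± 10.9 in yellow and 16.1 ± 4.29 in white. The KIAA2026-like genes, which lie 183 bases from LOC113081155 and 125 bases from LOC113079820, were read in all colors: LOC113081154 at 1.03 ± 0.305 FPKM in brown, 1.11 ± 0.411 in yellow and 1.35 ± 0.304 in white, and LOC113079819 at 2.01 ± 0.275, 1.29 ± 0.267 and 1.38 ± 0.342 FPKM in the same order. Cyclin-T1-like and tubulin genes next to the PMEL copies with the fewest reads had levels of their own, such as LOC113065722 at 1.73 ± 0.192, 1.96 ± 0.672 and 1.6 ± 0.244 FPKM beside LOC113065723.

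**Figure D5:**
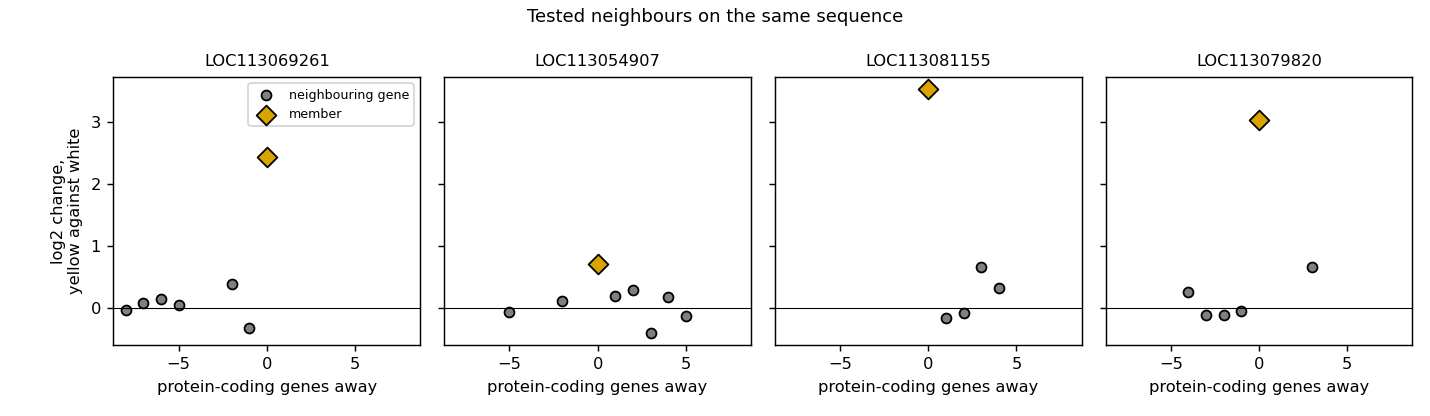
Log2 change in yellow against white (vertical axis, log2(FPKM + 1) scale) of each of the 4 tested members and of their tested protein-coding neighbours, by the number of genes away (horizontal axis). The estimates of the members lie above those of all their tested neighbours, which lie between -0.40 and 0.66. LOC113054907 is at 0.71 ± 0.38 (SE), with a limma interval of -0.13 to 1.56. The members passed the filter on low values only through pigmented libraries, so their place above the neighbours is a description.

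Correlations between the copies describe how alike their patterns were. On log2(FPKM + 1), Pearson's r over the 9 libraries was 0.972 between LOC113069261 and LOC113081155, 0.914 between LOC113069261 and LOC113079820, and 0.955 between the MART-1 copies. Against LOC113054907 it was 0.702 for LOC113069261, 0.656 for LOC113081155 and 0.706 for LOC113079820. These values describe libraries that share their color and their depth, and white libraries near 0 carry much of them. For LOC113081155, LOC113069261 ranked first among the 27419 other tested genes.

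Of the named genes that are no members, those nearest in pattern to LOC113069261 were solute carrier family 22 member 7-like LOC113111055 (r = 0.991 over 9 libraries, at 1.03 ± 0.928 FPKM in brown, 2.14 ± 1.04 in yellow and 0 in white), immunoglobulin kappa light chain-like LOC113053150 (0.949) and flavin reductase-like LOC113080874 (0.943). For LOC113081155 they were tmem130 (0.967), the triglyceride synthesis gene dgat2 (LOC113054403, 0.962) and again LOC113111055 (0.956). The gene tmem130 was at 0.584 ± 0.342 FPKM in brown, 1.38 ± 0.307 in yellow and 0.0217 ± 0.0202 in white, and dgat2 at 1.33 ± 0.875, 7.7 ± 2.34 and 0 FPKM in the same order. Nearest to LOC113079820 were phosphoenolpyruvate carboxykinase-like LOC113041858 (0.958), Rab-34-like LOC113064181 (0.952) and tmem130 (0.95). LOC113054907 had other nearest genes, led by 14-3-3 protein zeta-like LOC113120867 (0.965), TRIM39-like LOC113099687 (0.964) and BAX-like LOC113106509 (0.952).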

How the data were processed

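Back skin RNA of 9 libraries was sequenced from SMARTER mRNA-Seq libraries, per the labels' protocols. The submitters' processing notes name HISAT2 and StringTie without versions. The authors deposited 1 value per gene and library with no unit in the file header, read here as FPKM because its product with gene length was a whole multiple of a fixed step in each library (100% of nonzero values, tolerance 0.001 reads, widened in proportion above 100 reads). These steps gave the reads. The denominators implied were 0.675 to 1.39 times the counted reads. They were lowest in the libraries numbered 3, at 0.675 in brown, 0.762 in yellow and 0.689 in white, so 1 read was worth the most FPKM there. The same libraries had the highest share of muscle reads within their color. Of the gene IDs, 72068 of 74297 matched the RefSeq table of ASM336829v1, 72059 with the same start. A further 2229 rows without a name (0.862% to 1.49% of reads) were kept. No library was a copy of another (lowest chi-square per gene 24.4, yellow 1 and 2).

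The test was limma 3.58.1 (trend) in R 4.3.3 on log2(FPKM + 1), all 9 libraries in 1 fit, with 27420 genes of at least 1 FPKM in at least 3 libraries. It was two-sided with Benjamini-Hochberg adjustment over all genes at 0.05. This scale understates the change of low genes. The test was checked on simulated independent counts that hold no shared muscle or replicate differences. These libraries do differ in muscle content, so the check does not cover that. Pooled ratios used reads over summed denominators, with exact 95% binomial intervals. Intervals and floors of 3 reads cover counting error only. Ratios within a library were tested by exact permutation (scipy 1.17.1) and chosen after the values were seen.

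The members and lists were chosen with earlier results of these data known. Named genes were the members, each list's passing members or else that with the smallest p, the 3 named genes nearest each member by Pearson's r, and neighbours. From each list, examples summed over copies were added after their values were seen. Patterns that also matched D-dopachrome decarboxylase, TPC1 and dysbindin domain-containing proteins were narrowed before values were computed. Alternatives covered pseudocount, filter, scaling, voom, a replicate block, a muscle covariate and left-out libraries. Sequences were not used here.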

Additional observations from a re-analysis of the deposited data

How the results depend on the processing

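Over 226 alternative values of the 12 member changes, 0 reversed, 12 lost a call and 2 gained one. Where the libraries of the compared colors do not overlap, leaving out a library or changing the pseudocount could not reverse the sign. All 12 losses were of LOC113081155 in yellow against white, where the limma adjusted p was 0.1 with no filter on low values, 0.158 with a filter at 5 FPKM, 0.999 with voom, 0.0912 with only the 6 libraries compared and 0.373 without the libraries numbered 3. The number of members called in yellow against white, 1 in the reported fit, was 2 with a pseudocount of 0.1, 0 in each of those 5 alternatives, and 0 to 2 when 1 library was left out. With the replicate number as a block it was 0 (adjusted p = 0.0832 for LOC113081155). In brown against white and brown against yellow 0 members were called under every alternative run.

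Over all genes, 10 were called in brown against white. The count was 2 with no filter, 5 with a filter at 5 FPKM, 2 with TPM, 0 with voom, 3 with the replicate block, 0 without the libraries numbered 3 and 0 to 14 when 1 library was left out. In yellow against white 12 were called. The count was 5 with no filter, 5 with a filter at 5 FPKM, 0 with voom, 6 with the replicate block, 6 without the libraries numbered 3 and 2 to 12 when 1 library was left out. In brown against yellow 0 were called, and 1 with a pseudocount of 0.1 or with TPM. TPM moved the median of all genes to -0.19 in brown against white and -0.22 in brown against yellow, and no member changed sign under it. The split was 6 higher and 4 lower in brown against white and 9 and 3 in yellow against white. It was 10 and 1, and 12 and 0, with a pseudocount of 0.1, and 0 and 2, and 8 and 1, with TPM.

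The labels give the replicate numbers no shared fish, batch or day. Deviations from the color means correlated over 0.1 in 7 of 9 pairs of libraries with the same number (median 0.288, lowest -0.302) and in 5 of 18 pairs with different numbers (median -0.143). Same-number pairs were thus more often over 0.1, though not all were, and whether they share a source was not tested. The reported fit used no block. Its call of LOC113081155 in yellow against white was lost with the replicate block (limma adjusted p = 0.0832). Depth limits the white values, where all members together had 20 reads, and LOC113065723 and LOC113041558 could not be compared at 9 reads and 1 read.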
